A study of Homo sapiens with 45 samples.

Results

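KCNN1 was knocked down in A673, an established Ewing sarcoma cell line that carries the EWSR1-FLI1 fusion gene, by sh908, a short hairpin RNA against KCNN1 that is switched on by doxycycline. All 6 libraries labelled A673 sh908 were taken, of 45 poly(A) RNA libraries in the series: 3 from cells without doxycycline and 3 from cells with doxycycline. Libraries with the same replicate number were treated as pairs. Both groups carry the same hairpin construct. The labels used here name no group with doxycycline and without the hairpin, so effects of the hairpin and of the drug cannot be told apart. They name no other hairpin against KCNN1, so effects of losing KCNN1 and of the hairpin on other RNAs cannot be told apart. The length of the induction is not given in the sources used here. The 3 libraries of parental A673 without the construct are given as a reference for levels.

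KCNN1 encodes SK1, a small-conductance potassium channel that opens when calcium rises in the cell and lets potassium leave. Channels of this family carry calmodulin as their calcium sensor and make the membrane potential more negative, which in turn acts on calcium entry. The study's title places KCNN1 downstream of the fusion protein and links it to proliferation and calcium signalling. The comparison asks which transcripts differ once KCNN1 is lowered.

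Library totals ran from 16619617 to 24818664 estimated counts. Both replicate 3 libraries stood apart from the other 4: they had 14101 genes (without doxycycline) and 13816 (with) at 1 TPM or more, against 11944 to 12066 in the others, where TPM is a transcript abundance scaled for transcript length and library depth. On log2 CPM, the counts scaled to library size, 75.7% of the variance lay on a first principal component that set the replicate 3 libraries of both groups against the rest. The long noncoding RNA NEAT1 measured 163 TPM in the uninduced replicate 3 against 3.45 and 2.59 TPM in replicates 1 and 2. Pairs are therefore given 1 by 1 for the main genes and lists, and fits without pair 3 are given beside those they change. The labels do not say whether the numbers mark separate cultures, so p-values measure only the spread between these libraries, which may be technical. As is usual for bulk RNA, fewer cells of a type and less RNA per cell cannot be told apart. All 8 Ewing sarcoma markers listed, of which KCNN1 itself is 1, were above 1 TPM in at least 1 library of each group. Of 8 blood, endothelial and epithelial markers, 7 stayed under 1 TPM in every library, PTPRC, PECAM1 and EPCAM among them. The 8 osteosarcoma and fibroblast markers summed to 82.3 to 120.1 TPM without and 59.1 to 92.98 TPM with doxycycline, with RUNX2, IBSP and COL6A3 under 1 TPM throughout. Their part in the results was not tested.

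KCNN1 (chr19:17951290-18000085, GRCh38.p14) fell in all 3 pairs. Without doxycycline it measured 37.8, 35.3 and 17.99 TPM in replicates 1 to 3, and with doxycycline 10.2, 13.7 and 7.75 TPM. The groups did not overlap, although the uninduced replicate 3 stood nearer to the induced libraries than to its own group. The induced level was 26.9%, 38.9% and 43.1% of the uninduced level of the same pair, and the means were 30.4 ± 10.8 and 10.6 ± 3.02 TPM (SD, n = 3 each). The log2 fold change was -1.46 (SE 0.13, FDR 0.0013, edgeR quasi-likelihood test with the replicate as block and Benjamini-Hochberg adjustment over all genes, the false discovery rate). Without pair 3 it was -1.61 (FDR 0.0017). Without the replicate block it was -1.53 and no longer passed (FDR 0.999989). A 2-sided exact permutation test of log2(TPM + 1) gave a difference of -1.40 with p = 0.1, the smallest p that 3 against 3 libraries allow.

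**Figure D1:**
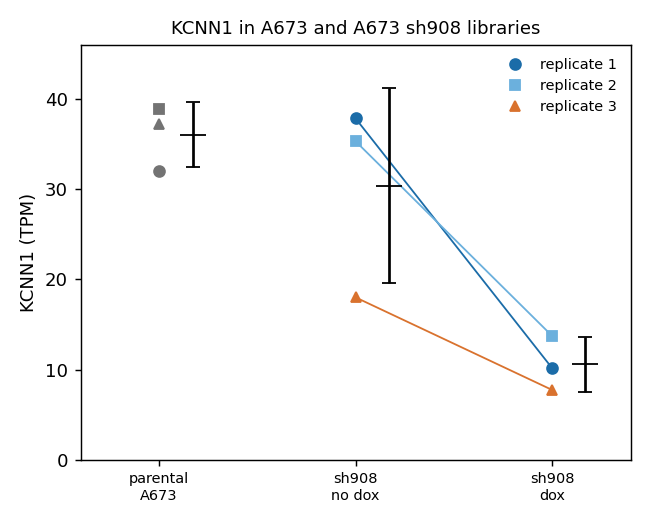
KCNN1 level (TPM, linear axis from 0) in 3 parental A673 libraries, 3 sh908 libraries without and 3 with doxycycline (dox). Points are libraries, lines join libraries of the same replicate number, and the bars beside them are mean ± SD; the 3 induced libraries lie between 7.75 and 13.7 TPM, below every uninduced library.

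Parental A673 held 36.01 ± 3.61 TPM of KCNN1 (SD, n = 3), close to uninduced replicates 1 and 2. The induced level of 10.6 TPM lay above that of the Ewing sarcoma line with the least KCNN1, TC71 (7.57 ± 1.06 TPM), and below that of the next, RDES (20.99 ± 2.64 TPM). KCNN1 was thus lowered and not lost, and it stayed above the 4.36 TPM of U2OS, the osteosarcoma line with the most. Of the 8 KCNN1 transcripts in the tables, the leading one, NM_001386977.1, measured 27.4, 20.2 and 8.63 TPM in uninduced and 8.29, 9.87 and 2.86 TPM in induced cells, or 37.4% of the uninduced mean. The next, NM_002248.5, measured 7.09, 6.10 and 4.65 TPM in uninduced and 0.239, 0.889 and 3.13 TPM in induced cells. Both were lower with doxycycline in every pair, and the split between such near-identical transcripts is an estimate.

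Across all genes, 14252 were tested, of which 36 were called higher with doxycycline (0.253%) and 37 lower (0.26%) at an FDR under 0.05. At an unadjusted p under 0.05 stood 1878 of the 14252. List counts below by the filtered edgeR fit of all 3 pairs are to be read against this. For the other fits the count over all genes was 1295 of 14252 by DESeq2, 2575 of 28356 with no filter and 2270 of 13785 without pair 3. Each of the 73 called genes moved the same way in all 3 pairs. A call with the replicate as block favours such genes, so this is no separate evidence. Without the replicate block edgeR called 0 genes, with 94 at an unadjusted p under 0.05, and no other tool was run without the block. With the block, DESeq2 called 102 higher (0.91% of 11212 with an adjusted p) and 76 lower (0.678%), and limma voom 36 (0.253%) and 35 (0.246%). With no filter on low counts edgeR called 315 of 28356 higher (1.11%) and 305 lower (1.08%). Counts by edgeR below are of the filtered fit of all 3 pairs unless another fit is named, and unfiltered counts stand beside the lists where they differ. Pairs 1 and 2 alone gave 93 higher (0.675% of 13785 tested) and 74 lower (0.537%), which included 54 of the 73. Leaving out pair 1 or pair 2 left 5 or 1 higher and 5 or 6 lower. The genes called whichever pair was left out numbered 5: KCNN1, PXDN, PEX10, VGF and LOC107987423. Of the 35 called genes named below by rule besides KCNN1, all but DDIT3, SLC3A2, RNF157 and PSD3 were also called without pair 3 (31 of 35). With effective transcript length in the edgeR model 7 of the 35 missed the threshold: RNF157 (FDR 0.092), NEU4 (0.054), EMILIN2, DCLK2, RARG, SERPING1 and KRT8 (each 0.053). RNF157 (FDR 0.056) and SERPING1 (0.054) also missed it in limma voom, and NEU4, LRFN5 (each 0.052) and SERPING1 (0.057) with DESeq2's size factors in edgeR. Spans of 36 of the 73 genes overlap another annotated gene, DDIT3 with MARS1 and PEX10 with RER1 for example, and reads of overlapping genes may be shared.

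**Figure D2:**
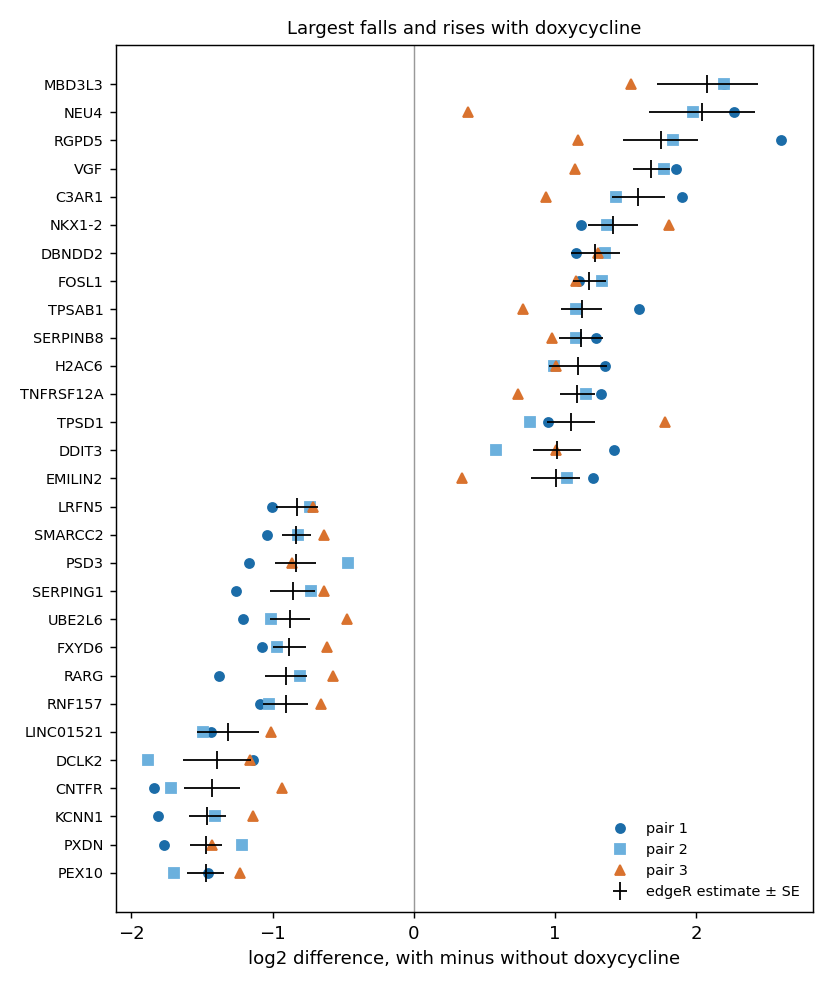
The 15 largest rises and 14 of the 15 largest falls among called genes, with log2 difference on the horizontal axis; colored points are the single pairs (log2 CPM) and black marks the edgeR estimate with its SE. LOC107987423 is left out because it was at 0 with doxycycline. Every gene shown has its 3 pairs on the same side of 0, as the rule for named genes requires. The estimates run from -1.47 (PEX10) to 2.08 (MBD3L3).

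Among the falls, PXDN had the same fold change as KCNN1 from a higher level. PXDN (chr2:1631887-1744901) encodes peroxidasin, a secreted peroxidase that crosslinks type IV collagen in basement membranes. It measured 87.1, 72.5 and 100.5 TPM in uninduced and 24.2, 32.2 and 35.4 TPM in induced cells, and the groups were far apart. The log2 fold change was -1.47 (SE 0.11, FDR 0.00075, edgeR), and -1.49 without pair 3 (FDR 0.0034). Parental A673 held 162.9 ± 10.03 TPM (SD, n = 3), above the uninduced cells. All 3 leading PXDN transcripts were lower, with induced means at 26.7%, 35.2% and 39.9% of the uninduced ones.

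COL4A1 and COL4A2, the chains of the collagen it acts on, were not called. COL4A1 had a log2 fold change of 0.02 (FDR 0.96) and COL4A2 of 0.07 (FDR 0.81, edgeR). In the list of 21 basement membrane genes with peroxidasin, 15 were tested, 13 had a lower estimate, and the median log2 fold change was -0.28 against 0.00 over all genes tested, and PXDN was the only one called by edgeR or limma voom. DESeq2 also called LAMA5 (FDR 0.033) and NID2 (FDR 0.041), and edgeR with no filter called these 3, LAMB2 and COL18A1, all lower. In the filtered edgeR fit the laminin chain LAMA5 (-0.47, FDR 0.073), the nidogens NID2 (-0.82, FDR 0.25) and NID1 (-0.57, FDR 0.33) and SPARC (-0.22, FDR 0.39), a collagen-binding matrix protein, came next. The pair medians of the list were -0.50, -0.02 and -0.17, the lowest in pair 1, and without pair 1 the list median was -0.09 with 5 of 15 genes higher. In the same pair the median of the 6 osteosarcoma and fibroblast markers tested was -0.76, against 0.24 and -0.08 in pairs 2 and 3, and their part in this list was not tested.

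PEX10 (chr1:2403974-2413827) encodes a ubiquitin ligase of the peroxisome membrane that helps to recycle the import receptor. It measured 15.1, 17.3 and 11.6 TPM in uninduced and 6.33, 5.49 and 5.92 TPM in induced cells. The induced libraries lay within 1 TPM of each other and the groups did not overlap. The log2 fold change was -1.47 (SE 0.13, FDR 0.0013, edgeR), and -1.58 without pair 3 (FDR 0.0017). Its main transcript, NM_002617.4, had a mean of 13.4 TPM in uninduced and 4.16 TPM in induced cells. Of 15 peroxisome biogenesis genes tested, PEX10 was the only one called by edgeR, DESeq2 or limma voom, and the median was 0.05 (-0.07 without pair 1). PEX16, an early membrane assembly factor, had 0.39 (FDR 0.14) and was called higher with no filter (FDR 0.045), and PEX14, part of the import pore, 0.19 (FDR 0.46).

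LOC107987423, an uncharacterised locus, was listed at 0 with doxycycline in all 3 libraries. Without doxycycline it had 27.3, 15.95 and 305.4 estimated counts, so replicate 3 held most of them. Against a floor of 3 counts over the induced group the level was at least 137-fold lower, and at least 17.8-fold lower without pair 3. It was over 1 TPM in 12 of the 39 libraries without the hairpin construct, which include those of parental A673, where it was at or near 0. The span of this locus overlaps those of 4 other annotated genes, DDX11L10 and WASH4P among them, and the assignment of its reads is uncertain.

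Other large falls were of CNTFR, DCLK2, LINC01521, RARG, FXYD6 and RNF157. CNTFR, the receptor for ciliary neurotrophic factor, measured 5.51, 8.52 and 33.7 TPM in uninduced and 1.30, 2.29 and 17.6 TPM in induced cells (log2 fold change -1.43, SE 0.20, FDR 0.017, edgeR). It fell in every pair while the groups overlapped, because replicate 3 was high in both. DCLK2, a doublecortin-like kinase of microtubules, had -1.39 (FDR 0.040), and the noncoding RNA LINC01521 had -1.32 (FDR 0.040). RARG, the gamma receptor for retinoic acid, measured 17.2, 18.3 and 29.02 TPM in uninduced and 6.21, 10.7 and 19.1 TPM in induced cells (-0.91, FDR 0.042). FXYD6, a regulator of the sodium pump, had -0.88 (FDR 0.013), and the ubiquitin ligase RNF157 had -0.91 (FDR 0.043; 0.0503 without pair 3).

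SMARCC2, a core subunit of the BAF chromatin remodelling complex, fell from 39.6, 36.5 and 90.7 to 17.8, 20.8 and 57.3 TPM (log2 fold change -0.83, SE 0.10, FDR 0.0084, edgeR). All 3 pairs fell, by 1.04, 0.82 and 0.64 on the log2 scale. LRFN5, a synaptic adhesion protein, measured 5.34, 4.598 and 4.55 TPM in uninduced and 2.48, 2.83 and 2.46 TPM in induced cells (-0.83, FDR 0.043), and its groups did not overlap. PSD3, an exchange factor for small GTPases of the ARF6 type, had -0.84 (FDR 0.040). Without pair 3, SMARCC2 (FDR 0.0066) and LRFN5 (FDR 0.042) were still called and PSD3 was not (FDR 0.084).

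UBE2L6 and SERPING1 also fell, with log2 fold changes of -0.88 (FDR 0.040) and -0.86 (FDR 0.044, edgeR). UBE2L6 is the conjugating enzyme for the ubiquitin-like protein ISG15, SERPING1 the inhibitor of complement C1, and both are known as interferon-inducible genes. UBE2L6 measured 29.1, 41.7 and 88.9 TPM in uninduced and 11.9, 21.5 and 61.3 TPM in induced cells. In the list of 22 interferon-stimulated genes, which does not hold these 2, 19 were tested, 15 had a lower estimate, the median was -0.22, and 0 were called by edgeR, DESeq2 or limma voom, with 6 at an unadjusted p under 0.05 by edgeR. The pair medians were -0.46, -0.17 and -0.17, and without pair 1 the median was -0.09, with 8 of 19 genes higher. With no filter edgeR called 2 lower, BST2 (FDR 0.013) and OAS1 (FDR 0.030). Without pair 3 edgeR called 1 lower, OAS3 (-0.84, FDR 0.041; -0.42, FDR 0.59 with all pairs). BST2, a tether of budding virus, measured 2.33, 3.22 and 25.6 TPM in uninduced and 0.707, 1.86 and 12.9 TPM in induced cells (-1.06, FDR 0.13). OAS1, a sensor of double-stranded RNA, had -0.86 (FDR 0.14). ISG15 itself measured 96.0, 80.7 and 54.6 TPM in uninduced and 105, 117 and 44.8 TPM in induced cells, higher in pairs 1 and 2 and lower in pair 3.

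RAB21, a small GTPase of endosomes, which lay outside the rule for named genes and was chosen after its values were seen, was called lower in counts (log2 fold change -0.52, FDR 0.041, edgeR), while its TPM barely differed: 24.99, 21.3 and 10.7 without and 23.1, 21.6 and 9.95 with doxycycline. Its 2 transcripts differed. The long one, NM_014999.4 of 15558 nucleotides, measured 6.99, 6.21 and 4.75 TPM in uninduced and 4.55, 4.24 and 2.92 TPM in induced cells. The short predicted one, XM_047428541.1 of 659 nucleotides, measured 18.002, 15.1 and 5.98 TPM in uninduced and 18.6, 17.4 and 7.03 TPM in induced cells. With transcript length in the model the RAB21 call was lost (FDR 0.89), and without pair 3 its FDR was 0.0503.

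Among the rises, VGF (chr7:101162509-101169952) was the only one called whichever pair was left out. VGF encodes a secreted precursor of neuropeptides, first known as a nerve growth factor inducible gene. It measured 19.6, 19.5 and 2.17 TPM in uninduced and 67.3, 69.4 and 4.62 TPM in induced cells. Within a pair the level was 3.44, 3.56 and 2.13 times that without the drug, although replicate 3 was low in both groups and the groups therefore overlap. The log2 fold change was 1.68 (SE 0.13, FDR 0.00075, edgeR), and 1.82 without pair 3 (FDR 3.0e-04). Parental A673 held 5.28 ± 1.09 TPM (SD, n = 3), under uninduced replicates 1 and 2.

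The stretch before the VGF start site is shown because it holds a full cAMP response element, the site bound by CREB and ATF factors. Capitals mark that element, TGACGTCA, whose first base lies 79 bases before the start that the promoter table takes for VGF; the stretch is chr7:101165611-101165678 on the minus strand of GRCh38.p14 (RefSeq). That start lies inside the gene span given above, which reaches further upstream, so other transcripts may start elsewhere.
VGF: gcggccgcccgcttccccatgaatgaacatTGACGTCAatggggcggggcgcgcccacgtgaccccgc
In windows of 250 bases before to 50 bases after the start, searched on both strands, these letters occurred in 649 of 35116 windows (1.85%) and in 428 of 11313 tested genes with a window (3.78%). Of the 36 called rises, 26 had a window, and VGF and the histone gene H2BC12 matched; 0 of the 25 falls with a window did. A match is a description of the letters only.

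FOSL1, TNFRSF12A, MMP1, ETV4 and NTSR1 were called higher. FOSL1, the subunit FRA1 of AP-1, a transcription factor made of FOS and JUN proteins, measured 21.8, 13.8 and 2.17 TPM in uninduced and 45.7, 36.99 and 4.30 TPM in induced cells (log2 fold change 1.24, SE 0.12, FDR 0.0014, edgeR; 1.25 without pair 3, FDR 0.0025). It rose in every pair by a like amount, 1.17, 1.34 and 1.15 on the log2 scale. TNFRSF12A, the receptor for the cytokine TWEAK, measured 54.2, 35.4 and 7.69 TPM in uninduced and 129, 87.0 and 12.5 TPM in induced cells (1.16, SE 0.12, FDR 0.0036). MMP1, the interstitial collagenase, went from 69.2, 39.4 and 20.8 to 132, 81.0 and 35.6 TPM (0.95, SE 0.09, FDR 0.0016). The ETS factor ETV4 rose by 0.66 (FDR 0.038), and NTSR1, the neurotensin receptor, by 0.86 (FDR 0.013). MMP1, ETV4 and NTSR1 lay outside the rule for named genes and were chosen after their values were seen. In MMP1, FOSL1 and TNFRSF12A alike, replicate 3 was the lowest library of its group. Over all called genes, 32 of 36 rises had a lower mean level in the replicate 3 libraries than in the other 4, and 26 of 37 falls a higher one. The share over all genes tested is not given here, so these counts are not read as a trait of the called genes. The median difference over all genes tested was 0.05 log2 CPM, higher in replicate 3.

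**Figure D3:**
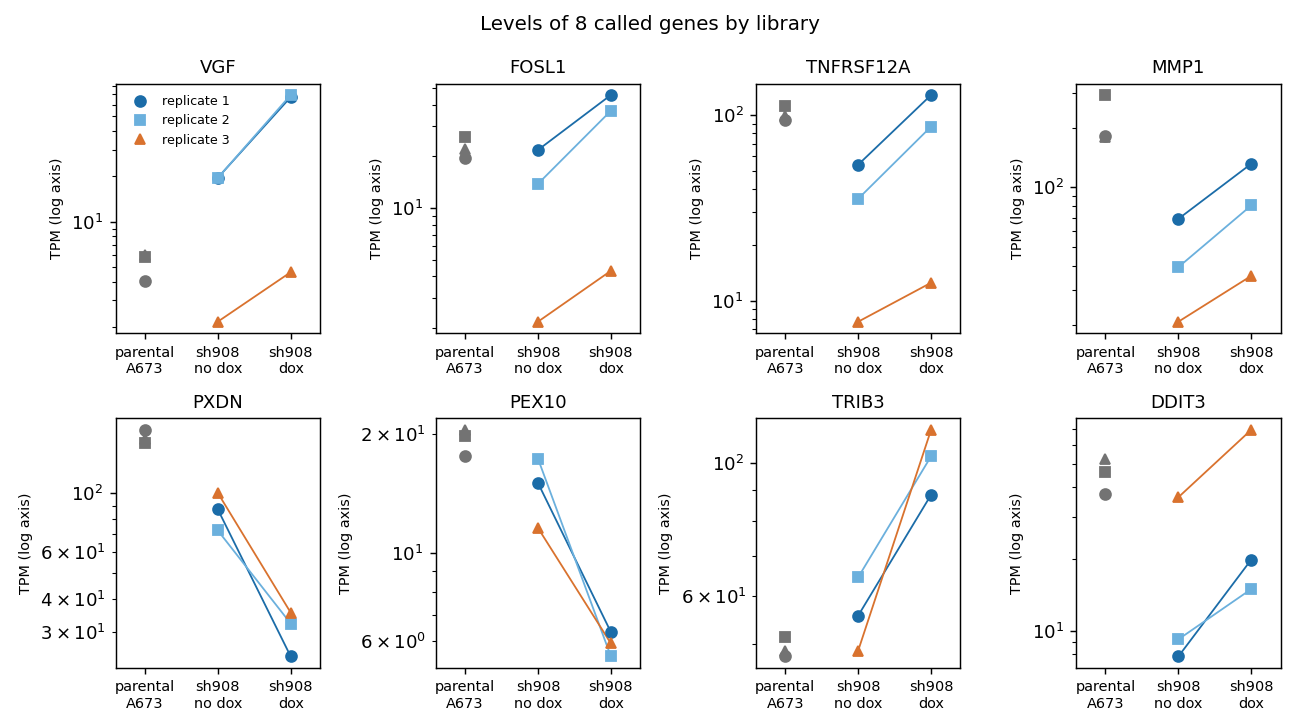
Levels (TPM, log axis) of 8 called genes in parental A673 and in sh908 cells without and with doxycycline (dox); points are libraries and lines join libraries of the same number. Within each pair VGF, FOSL1, TNFRSF12A, MMP1, TRIB3 and DDIT3 rise and PXDN and PEX10 fall, while replicate 3 starts lowest for VGF (2.17 TPM) and FOSL1 (2.17 TPM) and highest for DDIT3 (36.2 TPM).

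The immediate early genes had estimates of both signs. Of 17 tested, 12 had a higher estimate, with a median of 0.24 and pair medians of 0.23, 0.27 and 0.23. By edgeR 9 of the 17 had an unadjusted p under 0.05, 7 of them higher and 2 lower, and FOSL1 alone was called. With no filter edgeR also called DUSP1 higher and FOS and FOSB lower. FOS, the classic early partner of JUN, had the opposite sign: 20.8, 11.2 and 0.838 TPM in uninduced and 8.58, 5.21 and 0.715 TPM in induced cells (log2 fold change -1.02, FDR 0.055, edgeR). FOS was called lower by DESeq2 (FDR 0.015), by limma voom (-1.11, FDR 0.025) and by edgeR without pair 3 (-1.18, FDR 0.0066). Its relative FOSB had -0.91 (FDR 0.14). DUSP1, a phosphatase of MAP kinases, had 0.54 (FDR 0.14), and IER2 had 0.30 (FDR 0.17). The letters TGANTCA, with N as any base, are a looser form of the AP-1 site. They were found in the windows of 5 of the 26 rises (C3AR1, DDIT3, EMILIN2, SERPINB8 and SLC3A2) and in 1 of the 25 falls (NDST4). Among tested genes 772 of 11313 held them (6.82%), and among all windows 2707 of 35116 (7.71%). A match describes the letters only. FOSL1 and MMP1 had no entry.

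C3AR1, the receptor for complement fragment C3a, measured 3.36, 2.61 and 0.317 TPM in uninduced and 11.9, 7.33 and 0.626 TPM in induced cells (log2 fold change 1.59, SE 0.19, FDR 0.0084, edgeR). SERPINB8, an intracellular protease inhibitor, had 1.18 (FDR 0.013) and EMILIN2, a matrix glycoprotein, 1.003 (FDR 0.040). The homeobox gene NKX1-2 had 1.41 (FDR 0.012) and DBNDD2, a dysbindin-related gene, 1.29 (FDR 0.013). NEU4, a sialidase, had 2.04 (FDR 0.046) from low levels of 0.830, 0.694 and 0.128 TPM in uninduced and 4.01, 3.05 and 0.192 TPM in induced cells. The rise of NEU4 was 2.27 and 1.98 on the log2 scale in pairs 1 and 2 and 0.39 in pair 3.

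Another set of rises belongs to gene families with near-identical copies, for which the split of reads between copies is uncertain. The mast cell tryptase genes TPSAB1 and TPSD1 had log2 fold changes of 1.19 (FDR 0.013) and 1.11 (FDR 0.040, edgeR). TPSAB1 measured 46.03, 50.9 and 24.8 TPM in uninduced and 132, 118 and 40.8 TPM in induced cells. MBD3L3, of the MBD3-like cluster, had 2.08 (FDR 0.040), RGPD5, a RANBP2-like gene, 1.75 (FDR 0.043), and the histone gene H2AC6 1.16 (FDR 0.042). MBD3L3 measured 0.934, 0.785 and 2.38 TPM in uninduced and 4.67, 4.48 and 7.15 TPM in induced cells, and its groups did not overlap.

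In the fit of all 3 pairs the integrated stress response, 1 of the longest lists, had the most edgeR calls; without pair 3 it had 3 and the sterol list 10. It is the program by which cells short of amino acids or under other stress slow translation through eIF2 and make the factor ATF4, which turns on genes for amino acid import, amino acid synthesis and tRNA charging. Of 52 genes, 51 were tested, 49 had a higher estimate, and the median log2 fold change was 0.32 against 0.00 over all genes tested. The called genes were 4, all higher (0.253% of all genes tested were called higher): TRIB3, DDIT3, SLC7A5 and SLC3A2. A further 15 had an unadjusted p under 0.05, DESeq2 called 9, and edgeR with no filter called 16, all higher. The list was chosen with earlier results of these libraries known, so its direction is no independent evidence.

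Pair 3 held the highest list median. The medians were 0.14, 0.08 and 0.73 in pairs 1 to 3, and 38, 32 and 51 of the 51 genes were higher. Without pair 3 the median was 0.09 and 3 genes were called; without pair 1 or pair 2 it was 0.39 or 0.45 and 1 or 0 were called. The difference between pairs was not tested.

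Among its regulators, TRIB3, a pseudokinase that damps ATF4, measured 55.6, 64.4 and 48.7 TPM in uninduced and 88.4, 102 and 113 TPM in induced cells, without overlap (log2 fold change 0.88, SE 0.12, FDR 0.013, edgeR; 0.71 without pair 3, FDR 0.016). DDIT3, the factor CHOP, measured 7.82, 9.22 and 36.2 TPM in uninduced and 19.9, 14.96 and 69.4 TPM in induced cells (1.02, SE 0.17, FDR 0.040). It rose in all 3 pairs but was not called without pair 3 (1.01, FDR 0.081). ATF4 itself had 0.17 (FDR 0.48), a level of its RNA and not of its protein. ATF3 had 0.79 (FDR 0.14), and PPP1R15A, which restarts translation, 0.54 (FDR 0.10; 0.72, FDR 0.020 without pair 3). CHAC1, which degrades glutathione, measured 11.3, 16.5 and 9.52 TPM in uninduced and 14.8, 23.9 and 47.6 TPM in induced cells (1.11, FDR 0.52), a within-pair ratio of 1.31, 1.45 and 5.00.

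The 8 amino acid transporters all had a higher estimate, with a median of 0.52 and 5 at an unadjusted p under 0.05 by edgeR. The pair medians were 0.20, 0.29 and 0.94, with 6, 7 and 8 genes higher, and without pair 3 the median was 0.27 with 6 higher. SLC7A5 and SLC3A2, the light and heavy chain of the LAT1 transporter for large neutral amino acids, were both called. SLC7A5 measured 138, 114 and 60.7 TPM in uninduced and 182, 216 and 116 TPM in induced cells (log2 fold change 0.79, SE 0.11, FDR 0.019, edgeR; 0.68 without pair 3, FDR 0.035). SLC3A2 measured 262, 213 and 121 TPM in uninduced and 346, 314 and 215 TPM in induced cells (0.62, SE 0.11, FDR 0.040; 0.48 without pair 3, FDR 0.052). SLC1A4 (0.56, FDR 0.15) and SLC1A5 (0.51, FDR 0.15), which carry neutral amino acids, were not called by edgeR but were by DESeq2 (FDR 0.010 and 0.011), which called 4 of the 8. Of the 8, edgeR called 5 with no filter and 1, SLC7A5, without pair 3.

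The enzymes had their higher estimates in pair 3. The 12 genes of amino acid synthesis and one-carbon metabolism had pair medians of 0.06, -0.05 and 0.79, and the 13 genes of tRNA charging and export 0.09, -0.03 and 0.57; 0 of these 25 were called by edgeR, with 5 at an unadjusted p under 0.05, and 1 by DESeq2. With no filter edgeR called 2 of the 12 and 1 of the 13, all higher. ASNS, asparagine synthetase, measured 138, 240.2 and 167 TPM in uninduced and 139, 198 and 388 TPM in induced cells, a ratio of 1.01, 0.824 and 2.31 within pairs. PSAT1 of the serine pathway showed the same order, with 0.07, -0.20 and 1.09 on the log2 scale. GDF15, a stress cytokine and 1 of 4 secreted proteins and receptors tested, measured 9.79, 9.57 and 12.2 TPM in uninduced and 13.8, 15.9 and 26.1 TPM in induced cells, without overlap (0.81, FDR 0.074).

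**Figure D4:**
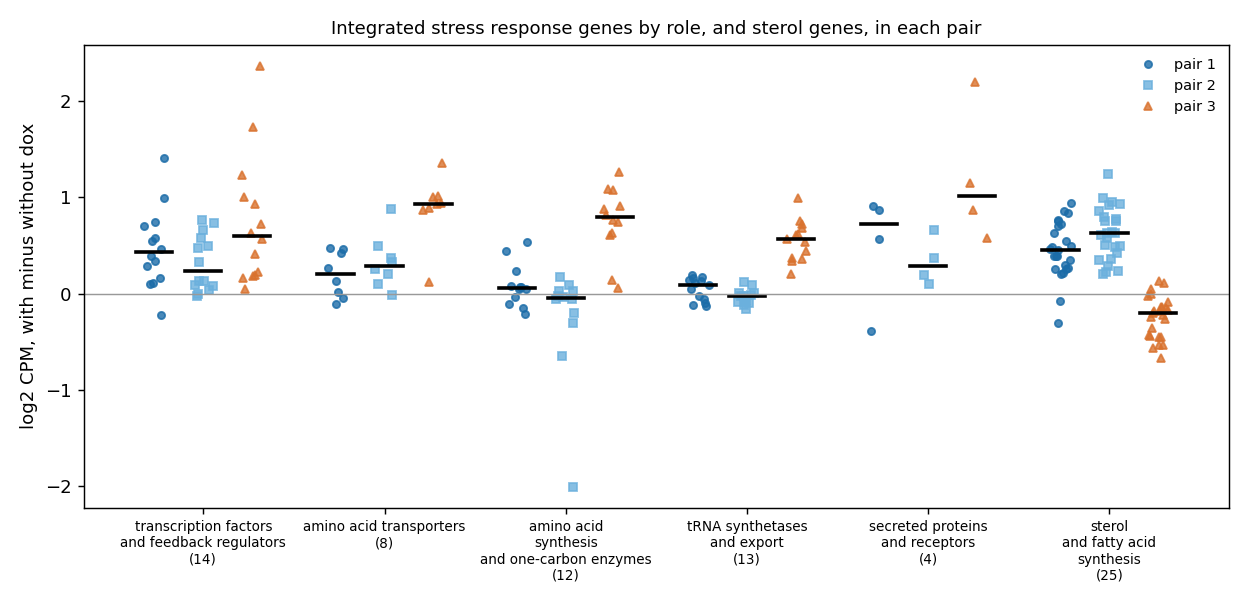
Within-pair differences (log2 CPM, with minus without doxycycline) of the integrated stress response genes by role and of the sterol and fatty acid genes, with numbers of genes in parentheses; points are genes and black bars are medians. The enzyme and tRNA synthetase groups lie near 0 in pairs 1 and 2 and above it in pair 3 (medians 0.79 and 0.57), while the sterol genes lie above 0 in pairs 1 and 2 and below it in pair 3 (-0.20).

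The start regions of 4 stress response genes are printed because they hold letters that match the amino acid response element. That element is the composite site through which ATF4 and C/EBP factors act. A match is a description of the letters only, and whether these stretches are bound was not tested. Capitals mark the match to TGATGNAA or its reverse complement. The stretches are chr7:97872439-97872506 (minus strand, first base of the match 68 bases before the start) for ASNS, chr15:40953232-40953299 (plus, 209 bases) for CHAC1, chr1:212565186-212565253 (plus, 191 bases) for ATF3 and chr19:33374041-33374108 (plus, 42 bases) for CEBPG, all GRCh38.p14 from RefSeq.
ASNS: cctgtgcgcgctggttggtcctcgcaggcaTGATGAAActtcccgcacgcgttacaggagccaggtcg
CHAC1: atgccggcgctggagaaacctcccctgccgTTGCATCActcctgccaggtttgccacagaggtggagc
ATF3: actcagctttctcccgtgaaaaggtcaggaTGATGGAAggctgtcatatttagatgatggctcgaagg
CEBPG: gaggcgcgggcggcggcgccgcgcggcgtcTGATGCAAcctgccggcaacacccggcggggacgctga
Of the 41 list genes with a window, 17 held the motif on either strand (41.5%), against 313 of 11313 tested genes (2.77%) and 1270 of all 35116 windows (3.62%). Among the called genes of the list only SLC3A2 had it. Matches of the 3 motifs searched can overlap in part. The 16 tested list genes with the motif had a median log2 fold change of 0.33 and the 24 without it also 0.33. In pair 3 the medians were 0.70 and 0.76.

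The unfolded protein response of the endoplasmic reticulum, which shares DDIT3 and TRIB3 with the stress response above as outputs, is tested on 22 other genes. Of these 10 were higher, the median was -0.06, and 0 were called by edgeR, DESeq2 or limma voom, with 2 at an unadjusted p under 0.05 by edgeR. Without pair 3 edgeR called 1 lower, ERN1, the sensor IRE1, which measured 0.314, 0.347 and 1.39 TPM in uninduced cells and, with doxycycline, near 0 in replicates 1 and 2 and 1.83 TPM in replicate 3. HERPUD1, a degradation factor, had 0.36 (FDR 0.21; called with no filter, FDR 0.030) and the chaperone CALR -0.20 (FDR 0.41). Genes of mitochondrial protein quality control had a median of 0.04 over 12 tested, with 0 called by edgeR, DESeq2 or limma voom and 1 at an unadjusted p under 0.05, and its member with the smallest p was the protease LONP1 (0.30, FDR 0.25).

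Sterol and fatty acid synthesis genes split by pair. These genes are driven by SREBP factors when cell cholesterol is low. All 25 were tested and 24 had a higher estimate, with a median of 0.28, but 0 were called by edgeR or limma voom, 4 had an unadjusted p under 0.05, and DESeq2 called 1, DHCR7, with 10 at an unadjusted p under 0.05. With no filter edgeR called 5 higher, DHCR7 among them, and 12 had an unadjusted p under 0.05. The pair medians were 0.45, 0.63 and -0.20, with 23, 25 and 4 of 25 genes higher. Without pair 3 the median was 0.51 and 10 genes were called; without pair 1 or pair 2 it was 0.18 or 0.13 and 0 were called. DHCR7, the last enzyme of cholesterol synthesis, measured 138, 131 and 79.6 TPM in uninduced and 215, 263 and 83.0 TPM in induced cells (0.60, FDR 0.15; 0.83 without pair 3, FDR 0.0081, edgeR). HMGCS1, which makes HMG-CoA, measured 19.003, 19.1 and 51.3 TPM in uninduced and 32.04, 37.6 and 30.6 TPM in induced cells (0.37, FDR 0.80; 0.88 without pair 3, FDR 0.0066). INSIG1, the sterol-regulated brake on SREBP, showed the same split, from 16.05, 18.4 and 35.4 to 27.7, 36.3 and 28.7 TPM (0.89 without pair 3, FDR 0.0066). In uninduced cells HMGCS1 and INSIG1 were highest in replicate 3. Whether pair 3 differed from the others was not tested.

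Most G2/M phase genes had a lower estimate and few were called. Of 55 genes of the G2/M phase, 50 had a lower estimate, with a median of -0.13 and pair medians of -0.19, -0.18 and -0.04; 0 were called by edgeR or limma voom and 1 by DESeq2, with 14 at an unadjusted p under 0.05 by edgeR. With no filter edgeR called 2 lower, HMGB2 and CENPE, and without pair 3 the median was -0.20, with 19 at an unadjusted p under 0.05 and 0 called. MKI67 measured 87.3, 82.4 and 73.8 TPM in uninduced and 57.0, 82.0 and 71.4 TPM in induced cells (log2 fold change -0.18, FDR 0.55). TOP2A had -0.29 (FDR 0.29) and CCNB1 -0.22 (FDR 0.32). The 43 S phase genes had a median of -0.02, with -0.13, -0.13 and 0.18 in the pairs, and 0 called by edgeR, DESeq2 or limma voom (1 at an unadjusted p under 0.05). Without pair 3 the S phase median was -0.13, 4 of 43 genes were higher, 5 had an unadjusted p under 0.05 and 0 were called. PCNA, the DNA polymerase clamp, measured 336, 355 and 265 TPM in uninduced and 309, 305 and 479 TPM in induced cells, lower in pairs 1 and 2 and higher in pair 3 (0.19, FDR 0.80; -0.16 without pair 3).

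CDKN1A, the cyclin-dependent kinase inhibitor p21, was the only called member among 15 G1 genes and among 21 p53 target genes. It measured 28.8, 31.8 and 19.5 TPM in uninduced and 52.4, 46.3 and 30.8 TPM in induced cells (log2 fold change 0.72, SE 0.11, FDR 0.024, edgeR), higher in each pair while the groups overlapped. Without pair 3 it was 0.72 (FDR 0.035). The p53 list had a median of -0.04, and MDM2, its feedback ligase, had -0.22 (FDR 0.32). By edgeR 5 of the 21 p53 target genes had an unadjusted p under 0.05, 3 of them higher and 2 lower. A673 is known to lack functional p53. Of 16 apoptosis regulators 0 were called by edgeR or limma voom and 1 by DESeq2, with 2 at an unadjusted p under 0.05; with no filter edgeR called MCL1 higher and BMF lower. MCL1, a survival factor, had 0.35 (FDR 0.13; 0.037 in DESeq2), and BMF, a death-promoting BH3 protein, -0.49 (FDR 0.094).

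**Figure D5:**
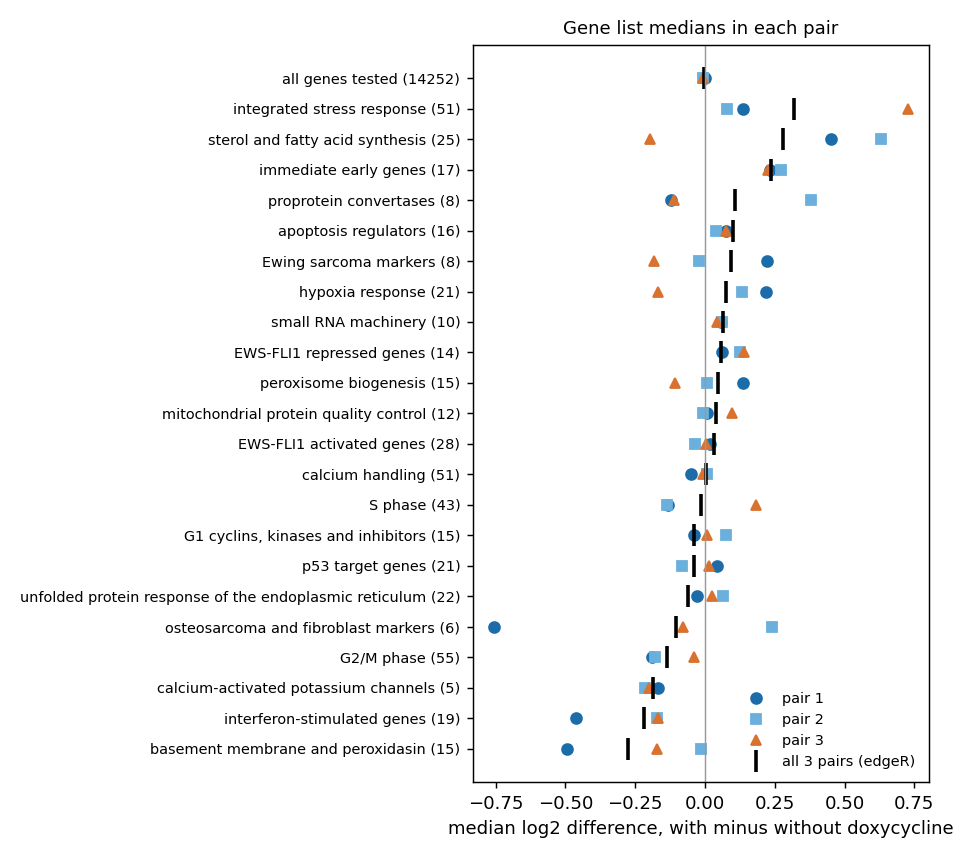
Median log2 difference of each gene list with at least 5 genes tested (number in parentheses), in each pair (points, log2 CPM) and in the edgeR fit of all 3 pairs (black marks). Stress response genes lie highest in pair 3 (0.73), sterol genes in pair 2 (0.63), and the calcium handling and EWS-FLI1 activated lists lie near 0 in every pair.

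Calcium handling genes had a list median at 0. Of 51 tested, 26 were higher, the median was 0.00, and 0 were called by edgeR or limma voom, with 9 at an unadjusted p under 0.05; DESeq2 called 1, NFATC4, and edgeR with no filter called NFATC4 and ATP2B4, both lower. NFATC4, a calcineurin-dependent transcription factor, had -0.59 (FDR 0.079; 0.030 in DESeq2), the plasma membrane calcium pump ATP2B4 -0.36 (FDR 0.26), the T-type calcium channel CACNA1G -0.44 (FDR 0.22), and CAMKK1, a calmodulin-dependent kinase, 0.46 (FDR 0.27).

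The other calcium-activated potassium channels were scarce in both groups, and none was called. KCNN3 (SK3) measured 0.212, 0.330 and 0.725 TPM in uninduced and 0.168, 0.116 and 0.373 TPM in induced cells (log2 fold change -0.88, FDR 0.25, edgeR). KCNN4, the intermediate-conductance channel, measured 0.272, 0.382 and 0.592 TPM in uninduced and 0.287, 0.350 and 1.29 TPM in induced cells (0.34, FDR 0.80). KCNN2 (SK2) was at 0 in all uninduced libraries and at most 0.0274 TPM in the induced ones. KCNMA1, the pore of the BK channel, stayed at or below 0.114 TPM. Its subunit genes KCNMB3 (0.09, FDR 0.92) and KCNMB4 (-0.19, FDR 0.69) were tested, and KCNN2, KCNMA1, KCNMB1 and KCNMB2 did not pass the filter on low counts.

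The fusion gene's program was also described. FLI1, whose 3′ part belongs to the fusion transcript, measured 23.7, 24.8 and 12.6 TPM in uninduced and 24.4, 24.7 and 17.2 TPM in induced cells (log2 fold change 0.19, FDR 0.52, edgeR), and EWSR1 had 0.10 (FDR 0.70). Of 28 genes activated by EWS-FLI1, 15 were higher and the median was 0.03; 0 were called by edgeR or limma voom, 5 had an unadjusted p under 0.05, and DESeq2 called 1, FCGRT (0.47, FDR 0.066 in edgeR and 0.0037 in DESeq2), and edgeR with no filter called FCGRT and NR0B1. NR0B1, an orphan receptor needed for the growth of Ewing cells, measured 45.6, 39.3 and 28.3 TPM in uninduced and 68.8, 67.6 and 24.1 TPM in induced cells (0.43, FDR 0.38; 0.70 without pair 3, FDR 0.018). Of 14 genes repressed by EWS-FLI1, 8 were higher and the median was 0.06; edgeR and limma voom called 1, CDKN1A, while DESeq2 called 3, edgeR with no filter 3 and edgeR without pair 3 called 2, all higher.

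The small RNA machinery, through which hairpins act, had a median of 0.07 over 10 genes, 0 called by edgeR, DESeq2 or limma voom and 2 at an unadjusted p under 0.05. AGO2, the slicing Argonaute, measured 14.1, 11.3 and 16.01 TPM in uninduced and 14.2, 15.2 and 17.3 TPM in induced cells (log2 fold change 0.23, FDR 0.33, edgeR), and XPO5, the exporter of hairpin precursors, had 0.22 (FDR 0.35). Among 8 proprotein convertases, which cut precursors such as that made by VGF, FURIN was called higher: 35.3, 24.7 and 40.2 TPM in uninduced and 49.4, 41.5 and 52.2 TPM in induced cells, without overlap (0.57, SE 0.09, FDR 0.036). PCSK2, the neuroendocrine convertase, had 0.34 (FDR 0.15) and was called by DESeq2 (FDR 0.0495). Without pair 3 edgeR called 2 of the 8 higher, FURIN among them, and with no filter 2 of 9. KRT8, a keratin placed among the epithelial markers, rose from 33.2, 41.3 and 27.3 to 54.2, 61.6 and 34.4 TPM (0.57, FDR 0.043). Its FDR was 0.053 with transcript length in the model, 0.48 without pair 1 and 0.29 without pair 2. EPCAM stayed under 1 TPM in every library. Of 21 hypoxia genes 0 were called by edgeR, DESeq2 or limma voom, with 4 at an unadjusted p under 0.05 by edgeR, and the pair medians were 0.22, 0.13 and -0.17. Without pair 3 the hypoxia median was 0.16 and edgeR called 1 higher, NDRG1 (0.89, FDR 0.045; 0.52, FDR 0.37 with all pairs).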

How the data were processed

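For each library a deposited table lists 177816 RefSeq transcripts. Per the file headers its columns are transcript length, effective length, estimated counts (an expected count that need not be whole) and TPM. Effective lengths, in nucleotides per the file headers, are other values and entered 1 alternative as an offset. The submitters' processing notes name fastp 0.19.5, kallisto 0.46.2, hg38 and GRCh38.p14, with no role or order; poly(A) libraries were made with a stranded kit, per the labels, and whether counting used strand is not given in the sources used here. The hairpin's own sequence was not used here.

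Transcripts were joined to genes by accession through RefSeq (GRCh38.p14), which matched 169966 (95.6%); the 7850 others held 0.91% to 1.17% of a library's count. Counts were summed to 41582 genes, rounded, filtered with filterByExpr and scaled by TMM. The edgeR 4.0.16 quasi-likelihood test (robust; R 4.3.3) was fitted with the replicate as block, with Benjamini-Hochberg adjustment over all genes. SE and fold changes are log2; pair differences are of log2 CPM with a prior count of 2. DESeq2 1.42.0 and limma 3.58.1 (voom) were alternatives. Single values used scipy 1.17.1, tables numpy 2.4.6 and pandas 2.3.3, and plots matplotlib 3.10.9, under Python 3.11.15. Tested once on simulated data, the edgeR fit found most changed genes and made more false calls than its threshold allows. A count of 0 was set against a floor of 3 counts, which covers counting error only.

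Same-numbered libraries deviated together from their group means (r = 0.683, 0.582 and 0.881, all over 0.1), and different numbers gave 0.608 and 0.517 where both were replicate 1 or 2, and -0.778 to -0.658 where 1 of them was replicate 3. These values set replicate 3 apart and cannot show how replicates 1 and 2 pair. On log2 CPM, uninduced replicate 1 correlated at 0.9825 with induced replicate 1 and at 0.9851 with induced replicate 2. The numbers were used as pairs because the comparison was set up so, and the labels give only the numbers.

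The named genes were KCNN1, the 15 largest rises and falls that were called, had mean log2 CPM of 0 or more and kept the same direction in all 3 pairs, called list members, up to 4 further members of each list with the smallest p, the calcium-activated potassium channel genes, FLI1, EWSR1, MKI67, TOP2A, CCNB1 and PCNA. Further list members are given where a group is described and were chosen after their values were seen. The values of some list genes are not reported here. Members, lists and tests were chosen with earlier results of these data known. Promoter windows came from RefSeq (250 bases before and 50 after each start), with 3 motifs searched on both strands.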

Additional observations from a re-analysis of the deposited data

How the results depend on the processing

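Without the replicate block, the pairing was ignored and KCNN1 had a log2 fold change of -1.53 with an FDR of 0.999989, and 0 genes were called higher and 0 lower. KCNN1 passed under each other alternative, from -1.61 to -1.27 when 1 pair was left out. The KCNN1 difference of log2(TPM + 1) ran from -1.55 to -1.21 when 1 pair was left out. Calls higher and lower numbered 102 and 76 with DESeq2 and 315 and 305 with no filter on low counts. With effective length as an offset they numbered 26 and 23 of 14252 tested, and 48 of these were among the 73 of the main fit. Mean fragment length, taken from the effective lengths, was 152.5, 141.5 and 158.7 nucleotides in uninduced replicates 1 to 3. In induced replicates it was 153.2, 160.4 and 169.9 nucleotides, and its part in the lost calls was not tested. Leaving out a pair gave 1 to 93 higher and 5 to 74 lower. Signs turned for some genes that were never called: BCL2 log2 fold change with the length offset (0.035), and, over the fits that left out 1 pair, STEAP1 log2 fold change (-0.071 to 0.32), COL1A1 log2 fold change (-0.68 to 0.00093), MKI67 log2 fold change (-0.29 to 0.00019), KCNMB3 log2 fold change (-0.088 to 0.25), PEX6 log2 fold change (-0.0043 to 0.30) and PCNA log2 fold change (-0.16 to 0.44). Of 35 called named genes besides KCNN1, 32 of the 32 with an adjusted value stayed called with DESeq2, 33 with limma voom, 28 with the length offset, and 5, 4 and 31 without replicates 1, 2 and 3. Of 93 named genes not called, 15 gained a call with DESeq2, 1 with limma voom, 27 with no filter and 8 without replicate 3. The cause was not tested. Low-count genes such as KCNN3, KCNN4 and NEU4 are measured imprecisely at this depth.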
